A study of Mus musculus with 16 samples.

Results

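The mRNAs of 10 genes that make or break down prostaglandins and leukotrienes were followed over 0, 6, 12 and 24 h of LPS in macrophages with and without miR-155. They are Pla2g4a, Ptgs1, Ptgs2, Ptges, Hpgds, Tbxas1, Hpgd, Alox5, Alox5ap and Ltc4s, taken as every probe whose gene name on the array is one of these symbols. That rule finds 17 probes of the 41077 with a value on every array. Of these, 16 passed the filter on dim probes and all 10 genes kept at least 1 probe, out of 17656 genes tested.

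The cells were macrophages grown from total bone marrow of male C57BL/6Jax mice for 9 days in M-CSF, the macrophage growth factor, at 10 ng/mL. The marrow came from wild-type mice (WT) or from mice lacking the microRNA miR-155 (KO), and LPS, a cell-wall component of Gram-negative bacteria, was given at 100 ng/mL. The 8 groups are WT and KO cells that received no LPS (0 h) and WT and KO cells after 6, 12 or 24 h of LPS, each with 2 samples on its own single-colour Agilent array. The labels give no ages and name no mouse or culture for a replicate, so the p-values measure only the spread between these samples, which may be technical.

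Eicosanoids begin with cytosolic phospholipase A2, encoded by Pla2g4a, which cuts arachidonic acid from membrane phospholipids. Cyclooxygenases (Ptgs1, the constitutive form, and Ptgs2, the inducible form) turn it into prostaglandin H2, which the terminal synthases convert to prostaglandin E2 (Ptges), prostaglandin D2 (Hpgds) or thromboxane A2 (Tbxas1). Hpgd oxidises and inactivates prostaglandins, and 5-lipoxygenase (Alox5) with its helper protein FLAP (Alox5ap) starts the other branch, in which Ltc4s makes leukotriene C4.

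The microRNA that the KO cells lack is shown with its seed, bases 2 to 8, in capitals. It lies at chr16:84714143-84714165 on the + strand (RefSeq sequence, build GRCm38.p6).
mmu-miR-155-5p: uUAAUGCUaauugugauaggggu
The array has 0 probes for the miR-155 gene, so its loss could not be checked in these files.

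Promoters are shown for the 3 members whose mRNA rose in LPS and for Ptgs1, the cyclooxygenase whose mRNA fell. Each is the 250 bases before the RefSeq start site on build GRCm38.p6, 5′ to 3′ on the gene's own strand. They lie at chr1:150099781-150100030 (+, Ptgs2), chr2:30903298-30903547 (-, Ptges), chr1:149961291-149961540 (-, the first of the Pla2g4a starts) and chr2:36230176-36230425 (+, Ptgs1). Capitals mark matches to the C/EBP motif TTNNGNAA, read on both strands.
Ptgs2: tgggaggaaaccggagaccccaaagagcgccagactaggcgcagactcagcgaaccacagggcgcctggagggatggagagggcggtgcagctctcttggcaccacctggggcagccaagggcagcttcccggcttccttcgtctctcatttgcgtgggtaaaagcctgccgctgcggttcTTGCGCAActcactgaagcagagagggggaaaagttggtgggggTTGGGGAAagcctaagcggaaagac
Ptges: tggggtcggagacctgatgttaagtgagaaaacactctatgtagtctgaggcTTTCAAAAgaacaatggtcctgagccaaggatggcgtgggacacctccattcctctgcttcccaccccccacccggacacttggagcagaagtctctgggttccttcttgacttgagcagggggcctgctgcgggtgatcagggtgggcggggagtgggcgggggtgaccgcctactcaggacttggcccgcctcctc
Pla2g4a: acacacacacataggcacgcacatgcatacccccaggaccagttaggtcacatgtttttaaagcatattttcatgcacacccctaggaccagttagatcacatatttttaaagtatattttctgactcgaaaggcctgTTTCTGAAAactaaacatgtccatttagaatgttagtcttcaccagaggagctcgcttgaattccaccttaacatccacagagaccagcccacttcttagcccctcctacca
Ptgs1: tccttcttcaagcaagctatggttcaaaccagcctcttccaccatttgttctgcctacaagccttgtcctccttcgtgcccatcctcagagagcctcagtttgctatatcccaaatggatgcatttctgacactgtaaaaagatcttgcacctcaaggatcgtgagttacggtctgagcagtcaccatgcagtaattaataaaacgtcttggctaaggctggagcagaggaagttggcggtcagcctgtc
The Ptgs2 window holds TTGCGCAA at positions -69 to -62 and TTGGGGAA at -25 to -18, counted back from the base before the start. The Ptges window holds 1 match, at -198 to -191, and that of Pla2g4a holds overlapping matches from -112 to -104. Hpgd, whose mRNA fell, also has a match, at -192 to -185, and Hpgds, which was not called, has matches at -176 to -169 and -144 to -137. The letters are not in the second Pla2g4a promoter or in the windows of Ptgs1, Tbxas1, Alox5 or Ltc4s. The motif is common: 36.8% of 32851 promoters of this length hold it. The NF-kB consensus, present in 7.25% of them, was not in any member's window, which says only that those letters are not in these bases. The core of the CRE, TGACG, (17.8% of promoters) and the E-box CACGTG (6.02%) were not in the members' windows either. These absences too hold only for the 250 bases shown. Bases farther upstream or past the start site were not searched, so a site there would be missed. The AP-1 motif TGANTCA (6.75%) matched only in Tbxas1, at -61 to -55. TATAAA (12.4%) matched in Tbxas1, where overlapping matches span -13 to -6, and in the second Pla2g4a promoter, at -200 to -195. A promoter was matched for 9 of the 10 members, all but Alox5ap.

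Between 56.0% and 67.6% of probes were well above background on each array, and no spot was saturated (0). The 8 replicate 1 arrays and the 8 replicate 2 arrays were scanned in separate sessions, per the file headers, and the second principal component (20.4% of the variance) separated the sessions, so values are given as replicate 1 and replicate 2. All 8 macrophage markers, among them Csf1r and Adgre1, were well above background on all 16 arrays, and Il6, Nos2 and Cxcl10 rose at every LPS time in both genotypes. Tnf, the other LPS-induced gene checked, rose at 6 h (5.36 in WT and 5.65 in KO, limma adjusted p = 0.024 and 0.0185). It did not pass at 12 h (4.01 and 4.26, 0.0912 and 0.0748), except with the session as a term (0.0285 and 0.0218), or at 24 h (2.86 and 3.12). Its 0 h replicates spread by an SD of 3.11 in WT and 3.18 in KO. Summed over a list, on a scale where 1 is the array's 75th percentile, macrophage markers gave 845 to 2899 per array. Dendritic cell markers gave 0.143 to 2.23 and lymphocyte markers 0.0916 to 0.567. Other cell types stand beside the results they could touch.

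Levels are log2 values relative to the array's 75th percentile, which is 0, and they rank one probe over arrays but not one gene against another. A gene is said to rise or fall where limma's moderated test over all 17656 genes gave an adjusted p under 0.05 (Benjamini-Hochberg). The 3 LPS times are compared with the same 0 h arrays and are not independent of each other.

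LPS raised the mRNAs of the prostaglandin E2 route and lowered those of the constitutive cyclooxygenase, of the prostaglandin-inactivating enzyme Hpgd and of Alox5 and Alox5ap. In WT cells Pla2g4a, Ptgs2 and Ptges rose at each time, and Ptgs1 fell at each time. Hpgd and Alox5 fell at 12 and 24 h and Alox5ap at 12 h. Hpgds, Tbxas1 and Ltc4s did not pass the test at any time in this fit, which has no term for the scan session. The same lists of genes were called in KO cells at each time. The calls of Alox5 and Alox5ap were among those that depended on single arrays, and those of Alox5 depended also on the background correction. With the session as a term all 10 members were called at 12 h in both genotypes, 3 higher and 7 lower.

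In WT cells 4 of the 10 members were called at 6 h, 3 higher and 1 lower, where 25.4% of all genes were called (12.6% higher and 12.8% lower). At 12 h 7 were called, 3 higher and 4 lower, against 19.3% of all genes (9.68% higher and 9.66% lower). At 24 h 6 were called, 3 higher and 3 lower, against 11% of all genes (5.61% higher and 5.42% lower). In KO cells the counts were again 4, 7 and 6, against 26%, 19.4% and 9.91% of all genes. Of all genes in KO 12.3%, 9.49% and 4.97% were called higher and 13.8%, 9.92% and 4.94% lower. The median difference over the members in WT cells was -0.99, -1.03 and -0.85 at 6, 12 and 24 h, beside 0.06, -0.01 and -0.03 over all genes tested. The KO medians were -0.95, -1.29 and -1.16, beside 0.01, 0.05 and -0.03. With the scan session as a term in the fit the counts were 7, 10 and 8 in WT and 7, 10 and 9 in KO. That term also raised the share of all genes called, to 45.6%, 37.6% and 27.4% in WT and 43.7%, 38.3% and 24.1% in KO.

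**Figure D1:**
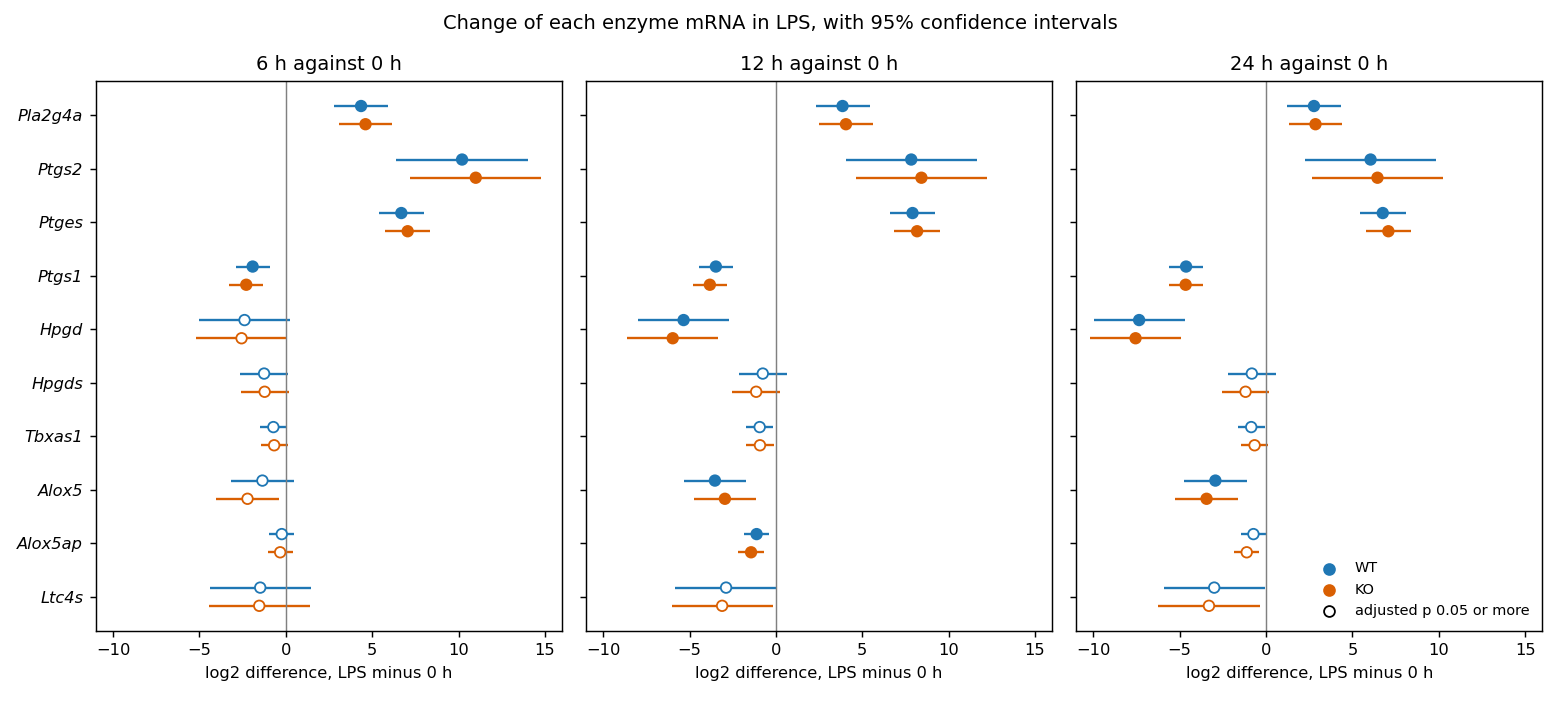
Difference of each enzyme mRNA from 0 h, in log2 units, at 6, 12 and 24 h of LPS in WT (blue) and KO (orange) cells, with 95% confidence intervals of the fit without the session term. Filled points passed the test and open points did not. Pla2g4a, Ptgs2 and Ptges lie to the right of 0 in all 3 panels, from 2.77 (Pla2g4a, WT, 24 h) to 10.21 (Ptgs2, WT, 6 h) in WT cells. The other 7 genes lie to the left, with filled and open points, and those of Hpgds, Tbxas1 and Ltc4s are all open.

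Pla2g4a, the enzyme that frees arachidonic acid, rose most at 6 h and stayed high. Its probe lies at chr1:151677133-151677192 on the - strand (build mm9, as the array files give it). On the WT arrays it read -0.58 and 0.71 at 0 h, 4.13 and 4.71 at 6 h, 3.43 and 4.40 at 12 h, and 2.22 and 3.45 at 24 h. KO cells had -0.89 and 0.50, then 4.07 and 4.78, 3.41 and 4.30, and 2.01 and 3.32. Every LPS array was above every 0 h array, and replicate 2 was the higher array in every group. Within each session the order was 6 h, 12 h, 24 h, 0 h, although the 6 h and 12 h arrays overlapped between sessions.

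The rise of Pla2g4a in WT cells was 4.36 ± 0.70 at 6 h (SE of the fit, 2 arrays a group), a 20.5-fold change with a limma adjusted p of 0.00136. It was 3.85 at 12 h (adjusted p = 0.00375) and 2.77 at 24 h (adjusted p = 0.0303). The rises in KO cells were 4.62, 4.05 and 2.86, with adjusted p of 0.000923, 0.0028 and 0.0286. A second probe, whose mapped ends span 10485 bases of mm9, gave 4.57, 4.0 and 2.86 in WT. The 24 h call in WT was lost without 0 h replicate 1 or 2 or 24 h replicate 2 (adjusted p = 0.177, 0.0502 and 0.242). In KO it was lost without 0 h replicate 1 or 24 h replicate 2 (adjusted p = 0.17 and 0.224).

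Ptgs2, the inducible cyclooxygenase, showed the largest change of the 10 genes. Its probe (chr1:151954744-151954803, +, mm9) is printed in 10 spots on each array. The WT arrays gave -5.96 and -1.60 at 0 h, 6.00 and 6.85 at 6 h, 3.71 and 4.40 at 12 h, and 0.96 and 3.57 at 24 h. For KO cells the values were -6.97 and -1.70, then 6.27 and 7.05, 3.45 and 4.72, and 1.31 and 2.91. All LPS arrays lay above all 0 h arrays, the order was 6 h, 12 h, 24 h, 0 h within each session, and the 6 h arrays overlapped those of no other time.

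The unstimulated level of Ptgs2 differed greatly between sessions. Replicate 2 was above replicate 1 at 0 h by 4.36 in WT and 5.27 in KO, and KO replicate 1 was not well above background, so 1 of the 2 KO arrays measured it. The spots of the probe on those 4 arrays spread by an SD of 0.08 to 0.72, far less than the gap between the arrays. At 6 h the sessions differed by 0.85 in WT and 0.78 in KO.

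In WT cells Ptgs2 rose by 10.21 ± 1.71 at 6 h (limma adjusted p = 0.00168), 11.96 in session 1 and 8.45 in session 2. It stood 7.83 above 0 h at 12 h (adjusted p = 0.00975) and 6.05 above at 24 h (adjusted p = 0.0481). In KO cells the 6 h rise was 8.76 in session 2 and at least 12.04 in session 1, where the dim 0 h array is set at its lowest signal well above background. With that array so set, the KO means stood at least 10.40, 7.82 and 5.85 above 0 h at 6, 12 and 24 h (adjusted p of the fit = 0.00104, 0.00655 and 0.0395). The 24 h calls depended on single arrays: of 16 fits that each left out 1 array, 3 kept the WT call (adjusted p 0.0179 to 0.312) and 5 the KO call (0.0133 to 0.234). The WT call was kept without either KO 0 h array or WT 0 h replicate 2, and the KO call without KO 0 h replicate 2 or any WT array of 0 or 24 h. A second probe of Ptgs2 gave 6.12 and 6.24 at 24 h, which did not pass (adjusted p = 0.079 and 0.0793). At 12 h the WT call was lost without 0 h replicate 1 (adjusted p = 0.0761) or 12 h replicate 2 (0.0654) and the KO call without 12 h replicate 2 (0.0551), while the 6 h calls held in all 16 fits.

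Ptges, the microsomal prostaglandin E synthase that works with Ptgs2, rose at every time and was highest at 12 h. The probe maps to chr2:30747838-30747897 (-, mm9). Its level in WT cells was -2.74 and -4.22 at 0 h, 3.36 and 3.06 at 6 h, 4.79 and 4.07 at 12 h, and 3.12 and 3.43 at 24 h. The levels in KO were -2.42 and -4.09, then 3.42 and 4.17, 5.16 and 4.67, and 3.84 and 3.79. The 12 h array was the highest within each session of each genotype, and the 6 h and 24 h arrays overlapped.

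The rises of Ptges in WT cells were 6.69 ± 0.59 at 6 h, 7.91 at 12 h and 6.75 at 24 h, or 103-fold, 240.1-fold and 108-fold. Their limma adjusted p was 4.07e-05, 2.27e-05 and 9.11e-05. In KO cells the rises were 7.06, 8.17 and 7.08, with adjusted p of 2.9e-05, 2.54e-05 and 8.59e-05. These 6 calls held whichever array was left out. Between 6 and 24 h the difference was 0.06 in WT, with a 95% interval of -1.25 to 1.38, and 0.02 in KO (-1.30 to 1.34).

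Ptgs1, the cyclooxygenase that cells make without stimulation, fell at every time and was lowest at 24 h. It was read at chr2:36105892-36105951 (+, mm9). In WT its signal was 0.69 and 1.58 at 0 h, -0.70 and -0.87 at 6 h, -2.41 and -2.28 at 12 h, and -3.03 and -3.97 at 24 h. On KO arrays it stood at 1.12 and 1.95, then -0.72 and -0.79, -2.29 and -2.29, and -2.65 and -3.60. The arrays of the 4 times did not overlap in either genotype.

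The fall of Ptgs1 in WT cells was -1.92 ± 0.45 at 6 h, -3.48 at 12 h and -4.63 at 24 h, the last 24.8-fold. The limma adjusted p was 0.0101, 0.000497 and 0.000146. In KO cells the differences were -2.29, -3.83 and -4.66 (adjusted p = 0.00385, 0.000278 and 0.000178). Of these 6 calls only that of WT at 6 h was lost when an array was left out, without 0 h replicate 2 (adjusted p = 0.0892) or 6 h replicate 2 (0.061). Platelets are rich in Ptgs1 and Tbxas1. The summed level of 6 megakaryocyte and platelet markers was 148 to 169 in WT at 0 h and 45.7 to 74.0 at 24 h, and 179.5 to 180.0 and 62.4 to 68.4 in KO. Nearly all of it was Pf4, a chemokine, and Pf4 and Gp1bb were well above background on all 16 arrays. Ppbp was above it on 7, among them the 4 at 0 h, Itga2b on 2, and Gp9 and Gp5 on 0. Of the 3 markers tested, Pf4 and Ppbp were called lower at 24 h in both genotypes. The other, Gp1bb, went the other way at 24 h, by 0.94 in WT and 0.36 in KO (limma adjusted p = 0.239 and 0.751). With the session term Gp1bb was called higher in WT (0.0321) but not in KO (0.381). Pf4 differed by -1.45 in WT and -1.46 in KO (limma adjusted p = 0.0116 and 0.0121). The mean of Ppbp over both genotypes went from -4.33 at 0 h to -7.63 at 24 h. The part of platelets and megakaryocytes in the fall of Ptgs1 was not tested. In these bulk samples fewer cells of a type and less RNA per cell cannot be told apart.

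**Figure D2:**
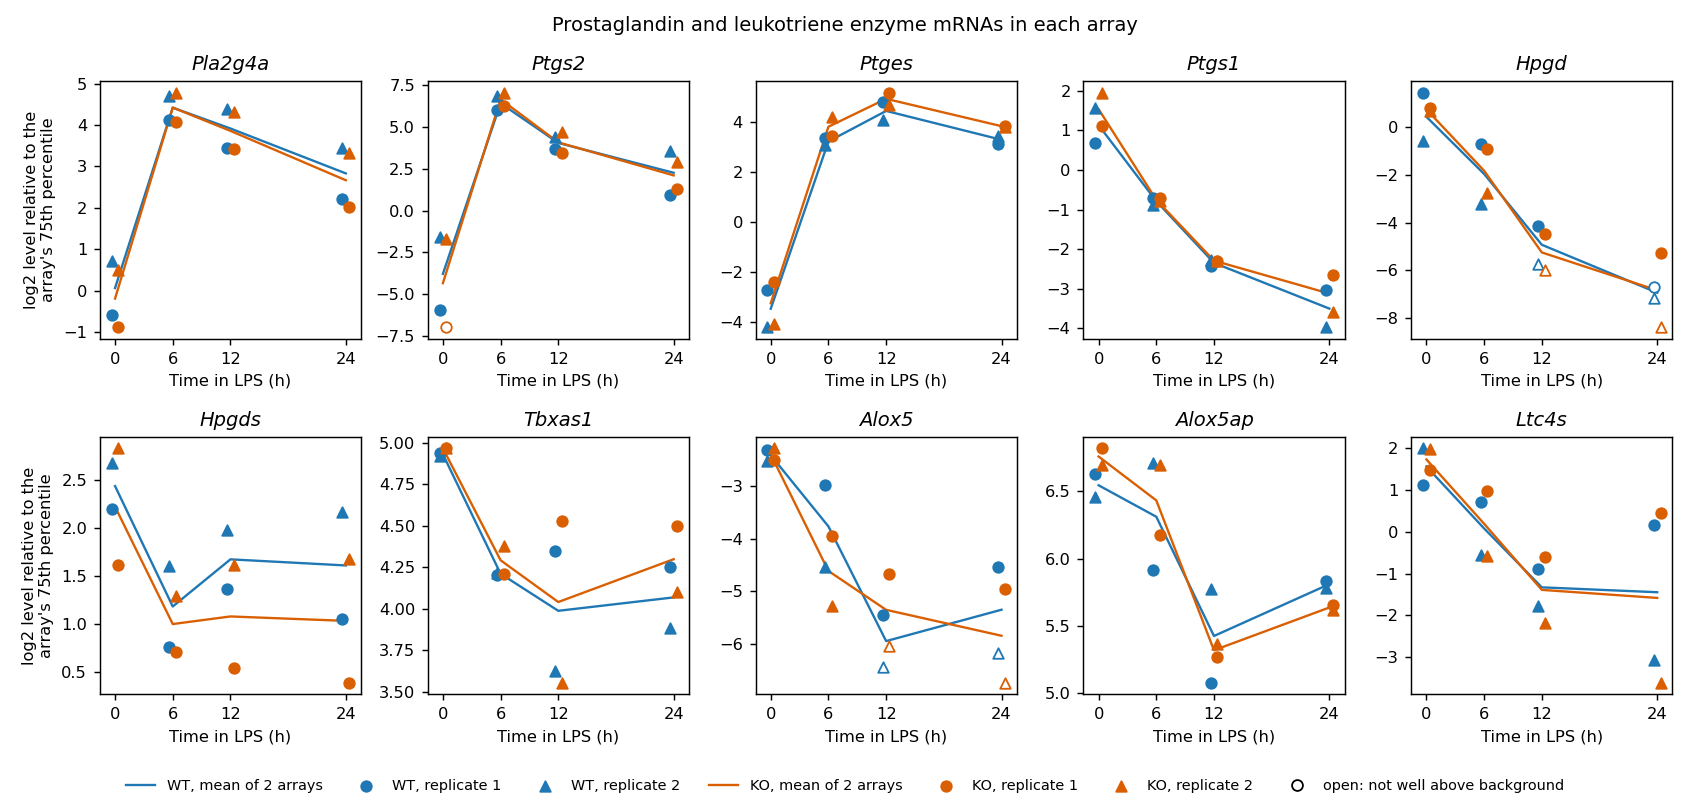
Log2 level of the 10 enzyme mRNAs, relative to the array's 75th percentile, on each of the 16 arrays over time in LPS, with lines through the means of the 2 arrays of a group. Pla2g4a, Ptgs2 and Ptges rise from 0 h, the means of Ptgs1 and Hpgd are lower at each later time, and the replicates of Ptgs2 at 0 h lie 4.36 (WT) and 5.27 (KO) apart. Open symbols are not well above background.

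Hpgds makes prostaglandin D2 in blood-derived cells. Its probe spans 3529 bases of mm9 from end to end (chr6:65070081-65073609, -). WT cells had levels of 2.19 and 2.68 at 0 h, 0.76 and 1.60 at 6 h, 1.36 and 1.98 at 12 h, and 1.05 and 2.16 at 24 h. The KO arrays read 1.61 and 2.83, then 0.70 and 1.29, 0.54 and 1.61, and 0.38 and 1.67. Replicate 2 was the higher array in every group, and within each session the 0 h array was the highest.

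The differences of Hpgds from 0 h were -1.26, -0.76 and -0.83 in WT and -1.22, -1.15 and -1.19 in KO. None of the 6 passed in the fit without the session (limma adjusted p 0.177 to 0.484). All 6 passed with the session as a term, with adjusted p from 0.00211 (WT, 6 h) to 0.0304 (WT, 12 h). Mast cells and basophils also make prostaglandin D2. The summed level of their 9 markers was 0.128 to 0.340 in WT at 0 h and 0.127 to 0.164 at 24 h, and 0.169 to 0.248 and 0.134 to 0.143 in KO. Prss34 was well above background on all 16 arrays, Cma1 and Fcer1a on 9, Tpsb2 on 5, Kit on 3, Mcpt4 on 2, and Cpa3, Mcpt8 and Ms4a2 on 0. Of the 3 tested, Cma1 was called higher in WT at 6 h (2.41, limma adjusted p = 0.0337). Their part in the level of Hpgds was not tested.

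Tbxas1, thromboxane A synthase, varied little. Its probe lies at chr6:39034356-39034415 (+, mm9). On the WT arrays it read 4.94 and 4.92 at 0 h, 4.21 and 4.22 at 6 h, 4.35 and 3.63 at 12 h, and 4.25 and 3.89 at 24 h. KO cells had 4.97 and 4.97, then 4.21 and 4.38, 4.53 and 3.55, and 4.50 and 4.10. All LPS arrays were below all 0 h arrays. The differences from 0 h, -0.72, -0.94 and -0.86 in WT and -0.67, -0.93 and -0.67 in KO, did not pass (limma adjusted p 0.0933 to 0.317). With the session term the 12 h difference passed in both genotypes (adjusted p = 0.0258 in WT and 0.0273 in KO), as did that at 24 h in WT (0.0478). A second probe gave -0.71, -0.96 and -0.82 in WT, and another, which carries the gene's name on another transcript (AK048544), did not pass the filter.

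Hpgd, the dehydrogenase that inactivates prostaglandins, had the deepest fall of the 10 genes. The probe maps to chr8:58799399-58799458 (+, mm9). The WT arrays gave 1.43 and -0.59 at 0 h, -0.71 and -3.23 at 6 h, -4.14 and -5.72 at 12 h, and -6.70 and -7.17 at 24 h. For KO cells the values were 0.78 and 0.67, then -0.91 and -2.76, -4.50 and -6.00, and -5.29 and -8.38. In WT the arrays of the 4 times did not overlap, and neither 24 h array was well above background. In KO the 12 and 24 h arrays overlapped, and replicate 2 was not well above background at both times, as it was at 12 h in WT.

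At 24 h Hpgd in WT cells was at least 88.5-fold lower than at 0 h, a bound against the lowest signal that is well above background (fitted difference -7.35, limma adjusted p = 0.00294). At 12 h the difference was -5.35 ± 1.19 in WT (adjusted p = 0.0106) and -5.98 in KO (0.00587), and at 24 h it was -7.56 in KO (0.00269), each with 1 of the 2 LPS arrays well above background. At 6 h it was -2.39 in WT and -2.56 in KO, which passed only with the session term (adjusted p = 0.178 and 0.15 without it, 0.0104 and 0.00733 with it). A second probe of Hpgd gave -6.05 at 12 h in WT and was at least 53.6-fold lower at 24 h. The 12 h call was lost in WT without 0 h replicate 1 or 12 h replicate 2 (adjusted p = 0.0797 and 0.0895) and in KO without 12 h replicate 2 (0.0571). The 24 h calls held in all 16 fits.

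Alox5, the first enzyme of leukotriene synthesis, was below the 75th percentile on every array and fell. It was read at chr6:116360366-116360425 (-, mm9). Its level in WT cells was -2.31 and -2.51 at 0 h, -2.98 and -4.54 at 6 h, -5.45 and -6.44 at 12 h, and -4.53 and -6.17 at 24 h. The levels in KO were -2.51 and -2.28, then -3.95 and -5.27, -4.67 and -6.03, and -4.95 and -6.74. All LPS arrays lay below the 0 h arrays, and at 12 and 24 h replicate 2 was not well above background in either genotype.

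The differences of Alox5 from 0 h in WT were -1.35 at 6 h, -3.54 ± 0.82 at 12 h and -2.94 at 24 h, with limma adjusted p of 0.27, 0.013 and 0.0448. In KO they were -2.22, -2.96 and -3.45 (adjusted p = 0.0734, 0.0287 and 0.0242). With the session term the 6 h differences passed too (adjusted p = 0.0366 in WT and 0.00346 in KO). Of 2 further probes, 1 did not pass in WT at 12 or 24 h (adjusted p = 0.0523 and 0.0799). In KO it was at least 10.4-fold lower at 12 h (0.0424) and did not pass at 24 h (0.109). The other was not well above background on any 12 or 24 h array, so its differences are bounds of at least 4.03-fold and 4.57-fold in WT (adjusted p = 0.0449 and 0.0424). In KO it passed at neither time (0.0893 and 0.0797). These calls depended on the background correction and on single arrays. With the normexp correction and a capped local background the 12 and 24 h differences were -0.99 to -1.31 and none passed, and the calls held in 9 to 13 of the 16 fits that left out 1 array. Each was lost without either 0 h array of the same genotype and without replicate 2 of the LPS time, with adjusted p up to 0.102 and 0.324 at 12 and 24 h in WT and 0.205 and 0.202 in KO. The WT 24 h call was also lost without either WT 12 h array (0.0547) or either KO 0 h array (0.0611).

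Neutrophils also express Alox5. The summed level of 8 neutrophil markers on the array was 0.914 to 13.4 in WT at 0 h and 0.564 to 3.93 at 24 h, and 1.03 to 9.58 and 0.637 to 8.18 in KO. S100a8, Camp and Mpo were well above background on all 16 arrays, Ltf on 13, Ngp on 12, Cxcr2 on 8, Retnlg on 3 and Elane on 0. The median difference of the list in WT was -1.15 at 12 h and -1.72 at 24 h, and 0 of the 7 tested were called. In KO the median was -0.61 and -1.02, with 0 called as well. The session term gave 3 called lower in WT at each of these times (Mpo and Ltf at both, Retnlg at 12 h and Ngp at 24 h). In KO Ltf was called lower at 12 h, where Camp was called higher, and Ltf and Ngp were lower at 24 h. Over both genotypes the mean of Ltf went from -1.31 at 0 h to -4.28 at 24 h, and that of Ngp from -2.20 to -5.87. Retnlg went from -4.09 to -7.35, Mpo from -2.59 to -3.97 and Cxcr2 from -6.49 to -7.13. S100a8 changed less, from 1.10 to 0.63, while Camp (-3.72 to -3.36) and Elane (-8.50 to -8.30) went the other way. The part of neutrophils in the fall of Alox5 was not tested.

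Alox5ap, the membrane protein FLAP that hands arachidonic acid to 5-lipoxygenase, dipped at 12 h. Its probe lies at chr5:150099347-150099406 (+, mm9). In WT its signal was 6.63 and 6.46 at 0 h, 5.91 and 6.71 at 6 h, 5.08 and 5.77 at 12 h, and 5.84 and 5.78 at 24 h. On KO arrays it stood at 6.82 and 6.70, then 6.17 and 6.69, 5.27 and 5.37, and 5.65 and 5.62. The 12 and 24 h arrays lay below the 0 h arrays in both genotypes, whereas the 6 h arrays overlapped them in WT.

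At 12 h Alox5ap had fallen by 1.12 in WT (a 2.18-fold change, limma adjusted p = 0.0379) and by 1.44 in KO (2.72-fold, adjusted p = 0.0122), each with an SE of 0.33. At 24 h the differences were -0.74 and -1.12 (adjusted p = 0.208 and 0.0602). That in KO passed with the session term (0.0161). The WT call held in 5 of the 16 fits that left out 1 array (adjusted p up to 0.21), those without a 6 h array or WT 12 h replicate 2, and the KO call in 12, being lost without either 0 h or either 12 h array of KO.

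Ltc4s, leukotriene C4 synthase, had replicates that moved apart during LPS. The probe maps to chr11:50050522-50050581 (-, mm9). WT cells had levels of 1.12 and 1.99 at 0 h, 0.70 and -0.55 at 6 h, -0.89 and -1.77 at 12 h, and 0.17 and -3.06 at 24 h. The KO arrays read 1.49 and 1.97, then 0.97 and -0.59, -0.60 and -2.18, and 0.45 and -3.61. Replicate 2 was the higher array at 0 h and the lower at every LPS time, in both genotypes.

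The differences of Ltc4s from 0 h were -1.48, -2.89 and -3.01 in WT and -1.54, -3.12 and -3.31 in KO, each with an SE of 1.32, and none passed (limma adjusted p 0.134 to 0.47). At 24 h the difference in WT was -0.96 in session 1 and -5.05 in session 2, and in KO -1.04 and -5.58. With the session term 3 of the 6 passed: 12 h in WT (adjusted p = 0.0487) and 12 and 24 h in KO (0.0357 and 0.0407). Eosinophils and mast cells also make leukotriene C4. The 4 eosinophil markers summed to 0.0393 to 0.416 on the 16 arrays, where Siglecf was well above background on 16, Prg2 on 8, and Epx and Ear6 on 0. Their part and that of mast cells in the differences of Ltc4s were not tested.

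From 6 to 24 h 2 members fell further in each genotype, Ptgs1 and Hpgd, where 10.5% of all genes were called in WT (5.61% higher and 4.86% lower) and 12.9% in KO (7.07% higher and 5.81% lower). Ptgs1 differed by -2.71 in WT and -2.37 in KO (limma adjusted p = 0.00498 and 0.00759). Hpgd was at least 16.9-fold lower at 24 h than at 6 h in WT (fitted difference -4.96, adjusted p = 0.0255). In KO the fitted difference of Hpgd was -5.0 (0.0215), with 1 of the 2 arrays at 24 h well above background, so its size is uncertain. Ptgs2 differed by -4.16 in WT and -4.55 in KO, which passed only with the session term (adjusted p = 0.0167 and 0.0102). So did Pla2g4a, by -1.59 and -1.76 (0.00113 and 0.000568), and Alox5 in WT, by -1.58 (0.0282). With that term 5 members were called in WT and 4 in KO, against 30.1% and 32.1% of all genes. The Hpgd call was lost without 6 h replicate 1 or either 24 h array in WT (adjusted p 0.11 to 0.176), and without 6 h replicate 1 or 24 h replicate 2 in KO (0.143 and 0.131). Without those KO arrays the Ptgs1 call in KO was lost as well (0.0511 and 0.0539).

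No difference between KO and WT cells was detected in any of the 10 mRNAs. In limma 0 members were called for KO against WT at 0, 6, 12 or 24 h or over the mean of the 4 times, 0 of them had an unadjusted p under 0.05 in any of these comparisons, and 0 were called with the session term. Of all genes 0%, 0%, 0.0113% and 0% were called at the 4 times and 0.017% over their mean. At 12 h these were 0.00566% higher and 0.00566% lower, and over the mean 0.0113% higher and 0.00566% lower, so these comparisons called very few genes of any kind. Over the mean of the 4 times the members ranged from -0.39 ± 0.31 for Hpgds to 0.46 ± 0.30 for Ptges. The median difference over the members was 0.02, beside 0.00 over all genes.

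Ptges and Hpgds lay farthest from 0. Ptges was higher in KO at each time, by 0.22, 0.59, 0.48 and 0.54, and in both sessions each time. Its 6 and 24 h arrays did not overlap between genotypes. The share of all genes with such a pattern was not counted, and Ptges was not called at any time. Its 95% interval over the 4 times was -0.20 to 1.12 (unadjusted p = 0.153). Hpgds was lower in KO by -0.22, -0.18, -0.60 and -0.58, with an interval of -1.09 to 0.30. For Ptgs2 the difference was -0.11 with an interval of -2.01 to 1.79, so a change of several fold in either direction lies within it. Alox5ap gave the narrowest interval, 0.01 with -0.35 to 0.38.

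The response to LPS was also compared between genotypes. The joint test of the 3 interaction terms called 0 members and 0% of all genes, and among members the smallest unadjusted p was 0.635, for Alox5. The largest differences between the responses at 6 h were 0.79 for Ptgs2, with a 95% interval of -4.58 to 6.16, and -0.86 for Alox5.

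**Figure D3:**
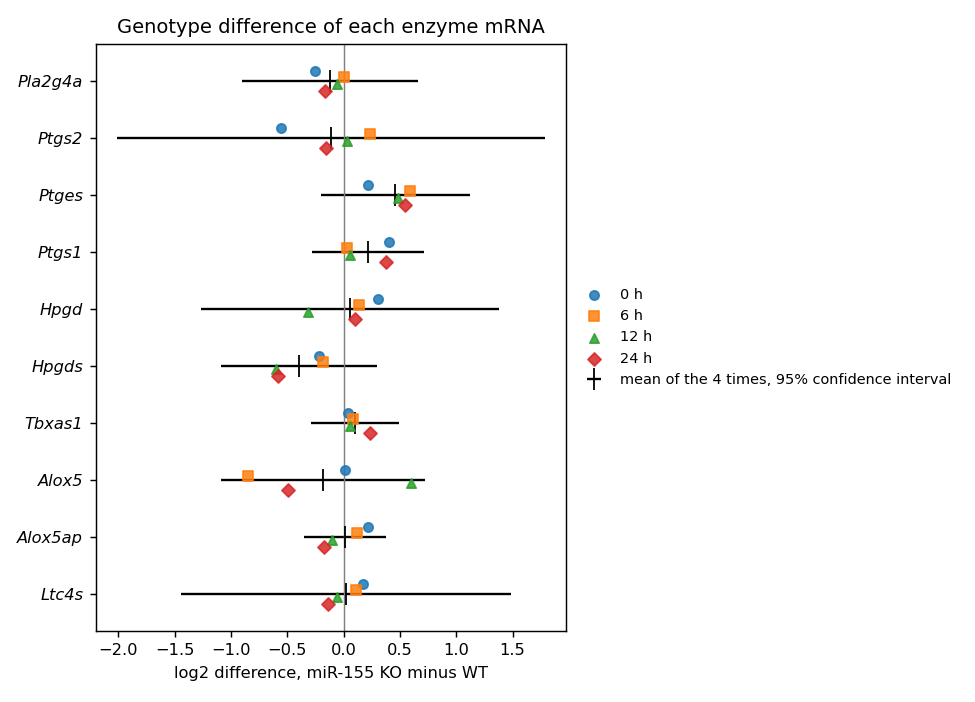
Difference of each enzyme mRNA between KO and WT cells in log2 units: symbols give the 4 times, and the bar gives their mean with its 95% confidence interval. The interval includes 0 for all 10 genes, and it is narrowest for Alox5ap (-0.35 to 0.38) and widest for Ptgs2 (-2.01 to 1.79).

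Other genes of the pathway were read from 5 lists. Among 14 tested phospholipases and genes of arachidonate handling, 1 rose and 3 fell in WT at 6 h (1 and 4 in KO). The median difference was -0.64 in WT, beside 0.06 over all genes. At 12 and 24 h 3 and 1 were called in each genotype. Counts with the session term at 6, 12 and 24 h were 6, 6 and 4 in WT and 8, 7 and 5 in KO. The gene that rose was Plaat3, a phospholipase, at every time in both genotypes, by 4.59, 4.80 and 3.74 in WT and 4.41, 4.50 and 2.98 in KO (limma adjusted p from 9.02e-05 to 0.00264). Dagla, which makes the endocannabinoid 2-arachidonoylglycerol, fell by 4.0 at 6 h in both genotypes, with 1 of the 2 KO arrays well above background. The calcium-independent phospholipase Pla2g6 differed by -2.08 and -1.82 at 6 h and the lysosomal Pla2g15 by -1.94 and -1.72, all called. Of these, Dagla, Pla2g6 and Pla2g15 were called higher at 24 h than at 6 h in both genotypes. For that comparison the session term gave 5 genes higher in WT and, in KO, 5 higher and 1 lower. The secreted Pla2g2e fell by 1.80 in WT and 2.01 in KO at 12 h.

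None of the other 5 prostanoid synthases passed in WT (0 called at each time), but 1, 2 and 2 were called higher at 6, 12 and 24 h with the session term. In KO the term gave 2, 2 and 1 higher, against 0, 0 and 1 without it. The medians of this list at 6, 12 and 24 h were 0.44, 0.44 and 0.24 in WT and 0.40, 0.63 and 0.28 in KO. In KO, Ptges2, another prostaglandin E synthase, rose by 0.93 at 24 h (adjusted p = 0.0474). The WT difference of 0.82 passed only with the session term (0.0723 without it and 0.0238 with it). Ptges3, a cytosolic prostaglandin E synthase, differed by 0.81, 0.76 and 0.64 in WT and passed only with the session term (adjusted p = 0.00924, 0.015 and 0.0415).

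Of 10 other lipoxygenase and leukotriene genes, 1 rose and 1 fell at 6 h in each genotype. With the session term 3 were called in WT and 6 in KO at 6 h, 5 and 5 at 12 h (1 and 2 without it) and 4 and 3 at 24 h (0 and 1 without it). The first was Alox12, the platelet-type lipoxygenase, which was not well above background on any 0 h array, so its rises are bounds. It was at least 5.79-fold higher at 6 h in WT and 4.07-fold in KO (limma adjusted p = 0.00383 and 0.00219). In KO it was at least 3.26-fold higher at 12 h and 1.58-fold at 24 h (0.00507 and 0.0475). In WT it was called at 12 h only with the session term (0.0139), where 1 of the 2 arrays was above background, and was not called at 24 h, where neither was. The joint interaction test did not call it. The second was Lta4h, which makes leukotriene B4, by -0.98 and -1.0 at 6 h and -1.52 and -1.69 at 12 h. The median of this list in WT was -0.30, -0.67 and -0.47.

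Among 6 genes of transport and inactivation, Ptgr2, a reductase of oxidised prostaglandins, fell at 6 h by 1.32 in WT and 1.19 in KO and stood 0.19 and 0.17 above 0 h at 24 h. With the session term 3 genes of this list were called at 12 h in each genotype (0 in WT and 1 in KO without it), 2 at 6 h in KO (1 without it) and 1 at 24 h in KO (0 without it). Abcc4, a prostaglandin exporter, rose by 1.45 at 12 h in KO (adjusted p = 0.0287), where WT gave 0.70 without passing. The joint interaction test called 0 genes of this list, so a different response of Abcc4 in KO was not detected. Cbr1, a carbonyl reductase that can act on prostaglandin E2, was the only gene of the 5 lists called for genotype. It was 2.68 ± 0.30 higher in KO over the 4 times (limma adjusted p = 0.0184), but not with the slide as a term (0.224), and the call held in 3 of 16 fits that left out 1 array. Whether this difference of Cbr1 comes from the loss of miR-155 or from another difference between the WT and KO mice was not tested.

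Of 9 tested receptors for prostanoids and leukotrienes, 1 passed in WT at each time, and it rose: Cysltr2, a receptor for the cysteinyl leukotrienes, with differences of 3.91, 3.56 and 3.70 in WT and 3.83, 3.01 and 2.53 in KO. Those at 12 and 24 h in KO passed only with the session term (adjusted p = 0.053 and 0.145 without it, 0.000836 and 0.00365 with it). That term gave 4, 3 and 2 receptors at 6, 12 and 24 h in WT and 4, 4 and 1 in KO. Ptger4, a receptor for prostaglandin E2, differed by 2.09 in WT at 6 h (0.0548) and Ptger2 by -2.87 (0.2), both of which passed only with the session term.

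Across these lists the calls of Plaat3, Dagla and Pla2g6, and those of Alox12 at 6 h, held in all 16 fits that left out 1 array. Those of Cysltr2 held in 12 to 13 of the 16 and those of Ptgr2 in 14 to 15. The calls of Ptges2 in KO (2 of 16), Alox12 at 24 h in KO (4 of 16) and Lta4h at 6 h (2 of 16 in WT and 1 of 16 in KO) were lost in most fits, whereas Lta4h at 12 h held in 14 in WT and 16 in KO.

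**Figure D4:**
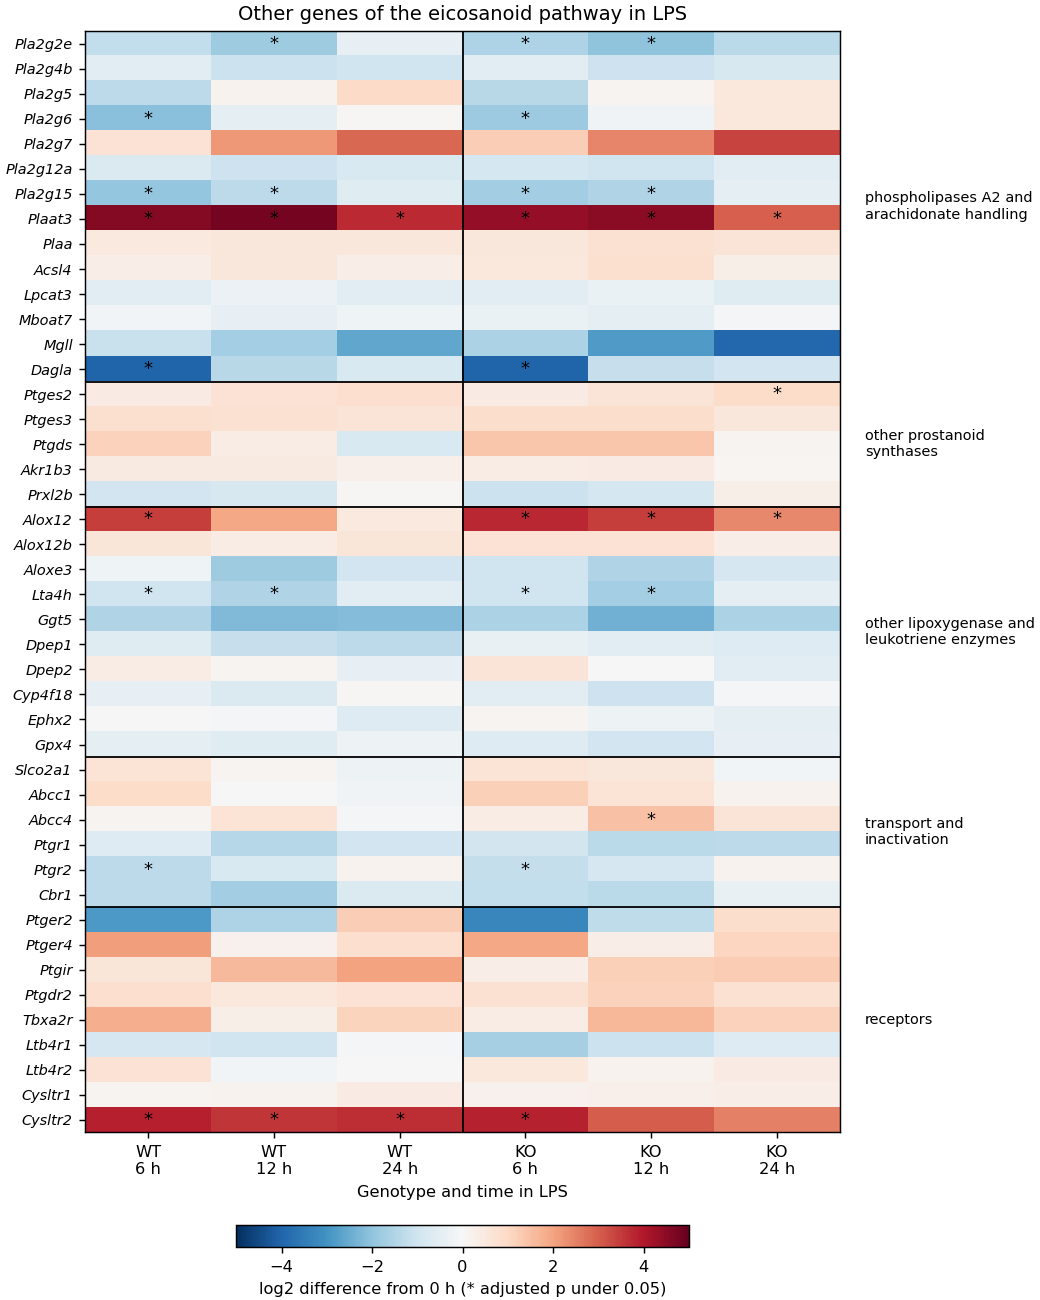
Difference from 0 h, in log2 units on a colour scale from -5 to 5, of the 44 other genes of the pathway that were tested, in rows by list, at 6, 12 and 24 h of LPS in WT and KO cells. Stars mark an adjusted p under 0.05: Plaat3 is starred at all 6 positions, and Cysltr2 at 6, 12 and 24 h in WT and at 6 h in KO.

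The genes most like a member were taken as those with the smallest root mean square difference over the 16 arrays, after each gene was centred on its own mean (13530 genes compared). For Ptgs2 these were Il1a (1.05), Cd69 (1.20) and Cd40 (1.26), set against an SD of 4.16 for Ptgs2 itself. For Ptges they were Gpr31b, Clec4e and C3 (0.62 to 0.63), and for Pla2g4a Rapgef2, Slc25a22 and Trim21 (0.25 to 0.28). Ptgs1 was closest to Unc5a (0.39) and Hpgd to Rhoj (0.79). The points share arrays, sessions and scaling, and these values are a description.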

How the data were processed

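Total RNA of 16 samples was hybridised to single-colour (Cy3) Agilent arrays. Per the file headers, the deposited scanner files hold the processed intensity of each spot after background subtraction and detrending by Agilent Feature Extraction 10.5.1.1. The deposited series table holds log2 values, which matched the log2 of those intensities up to a constant per array (Pearson r of 1), and it was used as an alternative.

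Control and outlier spots were left out, spots of 1 probe were averaged as log2 intensities, and levels were set relative to the 75th percentile of the array. A probe was kept where the scanner software marked it well above background on both arrays of 1 group or more (26854 of 41077 probes). Each of 17656 genes was read from its brightest probe on average, and every member probe was also read singly. Probe positions are those of the array files (mm9). Exon and UTR annotation of that build was not used here.

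Groups were fitted over all 16 arrays with limma 3.58.1 in R 4.3.3 (8 residual and 2.29 prior degrees of freedom), with Benjamini-Hochberg adjustment over all genes. Values after ± are standard errors of that fit. The number of arrays limits the precision. A fold of at least N sets the brighter group against the lowest signal well above background on the dim arrays. The script was tested on simulated data.

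Arrays of the same replicate number deviated together from their group means (correlation 0.40 to 0.84 over 28 pairs of groups), and the headers show 1 scan session for each number. Session-blocked values are printed where the session term changes a member's call, and beside the list counts given here that it moves by more than 1.5 times. Member calls made without the term were all kept with it.

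All 10 members are named, called or not. Of each pathway list the text gives counts and up to 4 called genes each way. Genes most like a member are the 3 closest by root mean square difference. The members, lists and tests were chosen with earlier results of these data known. Alternatives were the session or slide as a term, normexp background (offset 50), quantile normalization, no filter, the series table, all probes, and each array left out. A normexp fit with the local background capped at 2 times the array's median was added after seeing the data. Marker lists were macrophage, mast cell and basophil, neutrophil, megakaryocyte and platelet, eosinophil, dendritic cell and lymphocyte.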

Additional observations from a re-analysis of the deposited data

How the results depend on the processing

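With the replicate block, the scan session that pairs same-numbered arrays, 7 members were called at 6 h in WT and 7 in KO (4 and 4 without it), and from 6 to 24 h 5 in WT and 4 in KO (2 and 2 without it). The block turned no direction. It added 22 member calls and changed no other. With the slide as a term the counts were 8 and 7 at 6 h, and 5 and 6 from 6 to 24 h. Quantile normalization gave 7 members at 6 h in KO. No member was called for genotype under any alternative run.

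Normexp as planned called 2, 1 and 2 members in WT at 6, 12 and 24 h, 2, 1 and 1 in KO, and 0 from 6 to 24 h in either. Single spots of 2 arrays have a local background of up to 362027 and 722571 scanner units, where the array medians are about 20, and with the local background capped the counts were 4, 6 and 5 in WT and 4, 6 and 5 in KO. In the planned version Alox5 at 12 h turned to 0.35 in WT and 0.14 in KO, its change from 6 to 24 h in KO to 0.17 and its genotype difference over the 4 times to 0.16. From 6 to 24 h in KO, Ptges turned to -0.12, Hpgds to -0.024 and Tbxas1 to -0.10. The genotype difference of Tbxas1 turned to -0.023, that of Alox5ap to -0.11 and that of Ptgs2 to 0.013 (0.014 with the cap).

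With the slide as a term the genotype difference turned to 0.15 for Ptgs2 and -0.013 for Alox5ap, and Tbxas1 from 6 to 24 h in KO to -0.15. With quantile normalization the genotype difference turned to -0.02 for Hpgd and -0.010 for Alox5ap, and Tbxas1 from 6 to 24 h in WT to 0.14. The cause was not tested, and the values that turned were not called, other than those of Alox5 at 12 h.

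Leaving out 1 array gave 3 to 4, 3 to 7 and 3 to 5 members in WT at 6, 12 and 24 h, 4 to 4, 3 to 7 and 3 to 6 in KO, and 1 to 2 (WT) and 0 to 2 (KO) from 6 to 24 h. The 12 h count was 3 without WT 0 h replicate 1, 4 without WT 12 h replicate 2 and, in KO, 3 without KO 12 h replicate 2. The 24 h count was 3 without WT 0 h replicate 1 or WT 24 h replicate 2 and, in KO, 3 without KO 0 h replicate 1 or KO 24 h replicate 2. The count from 6 to 24 h was 1 without WT 6 h replicate 1 or either WT 24 h array, and 0 without KO 6 h replicate 1 or KO 24 h replicate 2. Directions turned only among values that were not called. Genotype differences ranged from -0.77 to 0.55 for Ptgs2, -0.33 to 0.44 for Hpgd, -0.022 to 0.22 for Tbxas1, -0.41 to 0.040 for Alox5, -0.086 to 0.11 for Alox5ap, -0.49 to 0.53 for Ltc4s and -0.29 to 0.054 for Pla2g4a. From 6 to 24 h Ptges ranged from -0.091 to 0.22 in WT and -0.35 to 0.40 in KO, Hpgds from -0.13 to 0.98 and -0.61 to 0.68, Tbxas1 from -0.32 to 0.040 and -0.19 to 0.20, and Ltc4s from -3.14 to 0.089 and -3.80 to 0.26. Alox5ap at 6 h in WT ranged from -0.63 to 0.16. Where signal nears background, as for Hpgd and Alox5 after LPS and Ptgs2 at 0 h, the size of a change is uncertain.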
